A study of Rattus norvegicus with 2 samples.

Results

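Natural killer (NK) cells and some T cells carry receptors of the killer cell lectin-like receptor family, whose rat genes lie mostly in one cluster on chromosome 4, and the members were taken here as every noncontrol probe whose gene name in the scanner files begins with Klr or Ly49. This gave 44 probes for 34 genes, of 45598 noncontrol probes and 36174 gene names on the array. RNA from cervical lymph nodes of male Sprague-Dawley rats aged 10 to 12 weeks was labeled with the dye Cy3 and hybridized to 1 array for the control group (C) and 1 array for the restraint stress group (RS), in which rats were held on a board on their backs. The labels give no restraint time, and the stressed array was taken as the 30-min group because the array comparison of the study is between that group and the controls. Both groups were anesthetized with inhaled halothane and killed by an overdose of sodium pentobarbital before the nodes were taken, and the sources used here do not give the number of rats behind each array. With 1 array in each group no test was possible, so that every difference below is between 2 arrays and the errors cover the measurement of the spots only.

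Each of these receptors is a type II membrane protein with a lectin-like domain outside the cell. Inhibitory members carry an immunoreceptor tyrosine-based inhibitory motif (ITIM) in the cytoplasmic tail and recruit the phosphatases Ptpn6 (SHP-1) and Ptpn11 (SHP-2), whereas activating members lack it and signal through adaptor chains such as Tyrobp (DAP12) and Hcst (DAP10). Ly49 receptors and the Klrc receptors (NKG2), which pair with Klrd1 (CD94), bind class I histocompatibility proteins, while NKR-P1 receptors (Klrb1) bind C-type lectins of the Clec2 family and Klrk1 (NKG2D) binds ligands that stressed cells display. The letter in a Ly49 name gives the type as the array names it, with s for stimulatory, i for inhibitory and si for members that carry both kinds of motif.

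Because genes of this cluster resemble each other, the probe decides which transcript is read, and probes of several members are shown first. They include those of Klri2, Ly49s5 and Klrb1a, whose differences were the largest among members above background. Positions are those of the scanner files, which give no build beside them; the file header names rn4. The probes of Ly49s5 (chr4:167792768-167792827, minus strand) and of the dimmer probe of Ly49s7 (chr4:168713691-168713750, minus strand) hold a run of at least 6 bases in which A and G alternate, marked in capitals within 30 of their 60 bases.
Ly49s5: tgctgtgtgaAGAGAGAGAtgaggtccaca
Ly49s7: ttttctggaatcactcaAGAGAGAacagaa
The probes of Klri2 (chr4:167092275-167092842, minus strand), Klrb1a (chr4:165642094-165647820, minus strand) and the dimmer Klrb1c probe (chr4:166178727-166180855, plus strand) hold no such run and are shown whole, without capitals, each spanning more genome than its 60 bases.
Klri2: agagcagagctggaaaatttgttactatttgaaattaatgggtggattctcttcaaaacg
Klrb1a: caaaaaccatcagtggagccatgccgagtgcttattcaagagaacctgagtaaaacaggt
Klrb1c: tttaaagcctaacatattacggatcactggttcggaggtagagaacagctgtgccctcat
The probes of Klra17 (chr4:167289767-167293547), Ly49s4 (chr4:167981613-167991920) and Ly49i3 (chr4:168235377-168245829), all on the minus strand, are shown as examples of stretches shared between probes of different members, Klra17 being of no stated receptor type. Capitals mark the 21 bases in a row that the Klra17 and Ly49s4 probes share, and, in the Ly49i3 probe, the 15 in a row that it shares with Ly49s4.
Klra17: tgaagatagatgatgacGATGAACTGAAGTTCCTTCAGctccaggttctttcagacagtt
Ly49s4: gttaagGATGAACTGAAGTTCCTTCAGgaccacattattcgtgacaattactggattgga
Ly49i3: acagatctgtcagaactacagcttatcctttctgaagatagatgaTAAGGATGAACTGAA
In all, 6 pairs of probes of different members shared 15 or more bases in a row, and the 11 genes in them were all named Klra or Ly49. The longest shared stretch was 33 bases, between Ly49i4 and Ly49s6. The files also list another member among the targets of 9 member probes, so that the values of single Ly49 genes may include their neighbours.

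Most members were detected. Of the 44 probes, 34 (77.3%) were marked by the scanner software as well above background in the C group and 35 (79.5%) in the RS group, beside 54.7% and 54.9% of all noncontrol probes. By gene, 28 of 34 (82.4%) were above background on at least 1 array, beside 58.3% of all genes. All 11 activating members and 9 of the 10 inhibitory members were among them. The 6 genes above background on neither array were Klra5, Klrb1, Klrg1, Klrg2, Klrh1 and Ly49si3, with intensities that reached at most 5.92 (C) and 6.47 (RS). Klrg1, an inhibitory receptor of matured effector lymphocytes that binds cadherins, and Klrg2 lie outside the main cluster on chromosome 4.

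**Figure D1:**
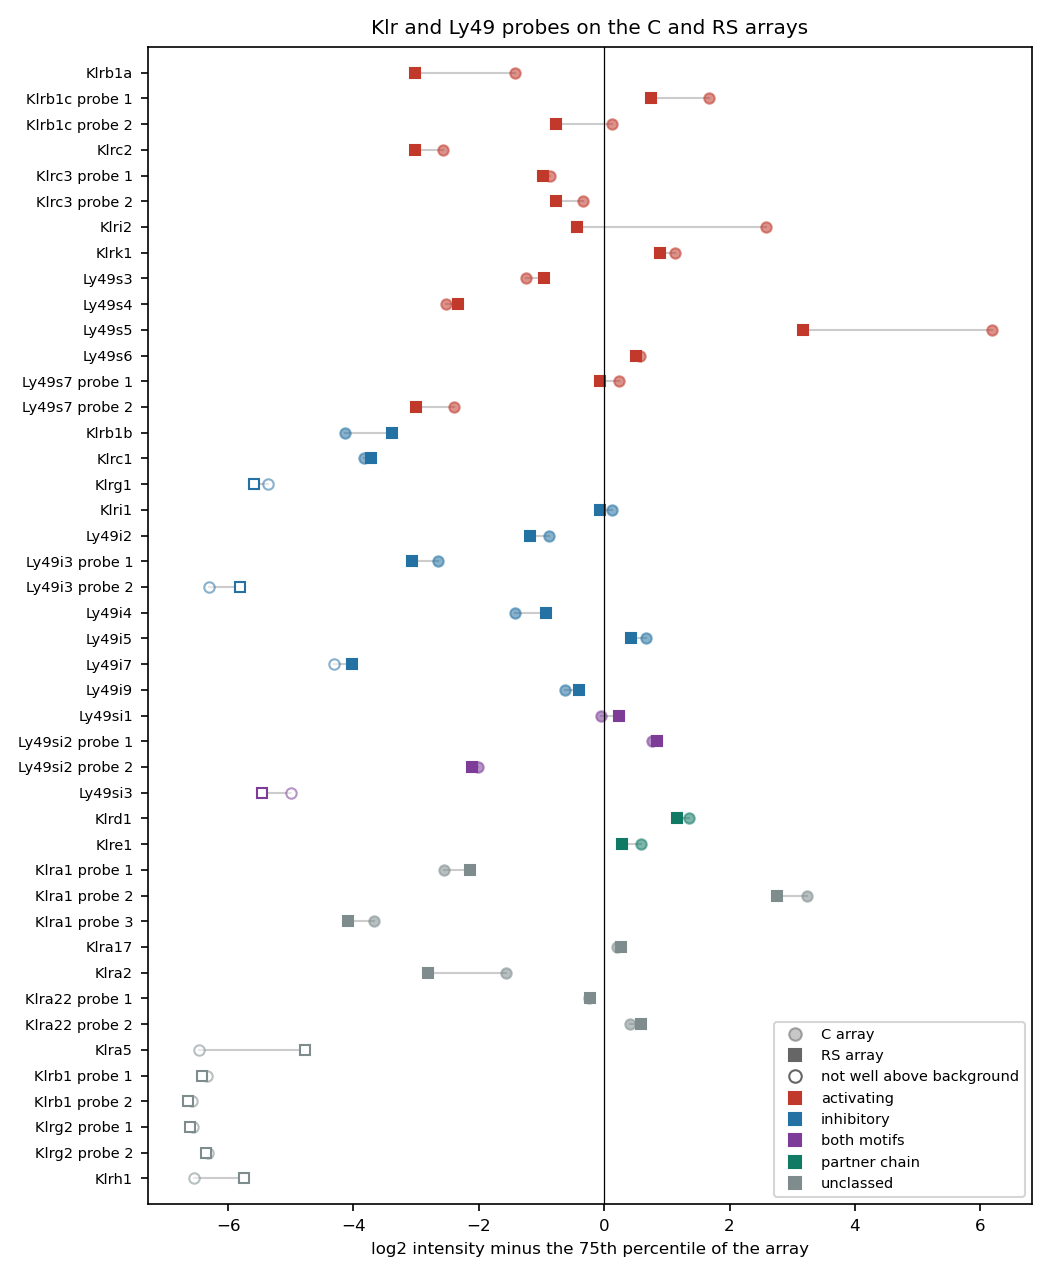
Each row is 1 of the 44 member probes, and the x axis gives its log2 intensity minus the 75th percentile of its array. Circles are the C array, squares the RS array, open symbols were not well above background, and colors give the receptor class; the pair of symbols in a row is the comparison, since levels of different probes are not comparable. The widest gaps among filled symbols are those of Klri2 and Ly49s5.

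For the comparison of RS with C, each intensity was divided by the 75th percentile intensity of its array (189 on C and 176 on RS), and a gene with several probes was represented by the brightest. Among the 28 members above background, 4 were lower on the RS array by 2-fold or more (14.3%) and 0 were higher by as much, beside 4.28% and 3.46% of the 21096 genes above background. By any amount, 17 of the 28 (60.7%) were lower, beside 47.9% of all genes. The median log2 difference (RS minus C) of the members was -0.21, and that of all genes was 0.016. The difference was past 1.96 times its spot error for 7 lower members and 1 higher member of the 28, beside 10.2% (lower) and 11.0% (higher) of all genes. The 7 lower members include Klra1, whose probes disagreed in direction, and Ly49s5, whose probe holds alternating A and G bases. Lymph node RNA comes from many cell types, so that fewer NK cells and less of a transcript per cell cannot be told apart.

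**Figure D2:**
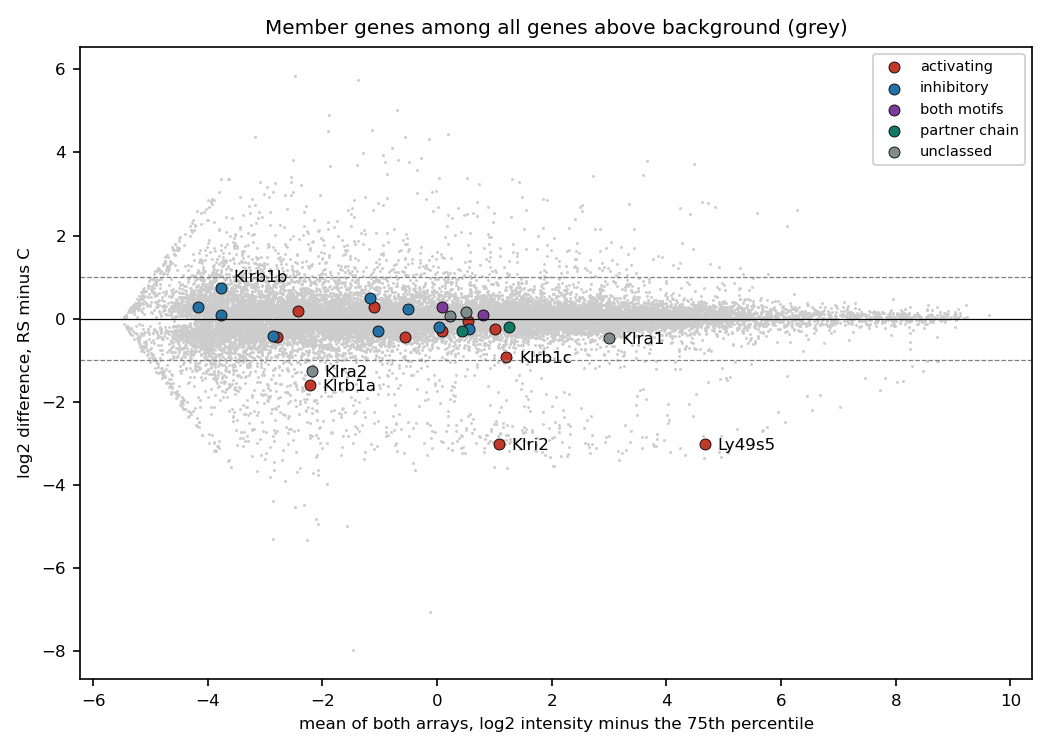
Each point is 1 gene above background on at least 1 array, with the mean of both arrays on the x axis (log2 intensity minus the 75th percentile) and the log2 difference, RS minus C, on the y axis; dashed lines mark 2-fold. The colored members lie mostly within 2-fold among the grey points of all genes, while Klri2 and Ly49s5 lie near -3.02.

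The activating members were mostly lower on the RS array. Of 11 genes, 9 were lower and 2 were higher, with a median log2 difference of -0.43, and 3 (Klri2, Ly49s5 and Klrb1a) were lower by 2-fold or more. All 6 activating members with Klr names were lower, with a median of -0.68, whereas the 5 stimulatory Ly49 members had a median of -0.064.

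Klri2, an activating receptor that pairs with Klre1, read 1137 in intensity on C and 131 on RS, a log2 difference of -3.02 ± 0.21 (spot error), or 8.11-fold lower. Among 2381 genes of similar signal, 6 (0.252%) were lower by at least as much. Ly49s5 had intensities of 13741 and 1587, a log2 difference of -3.02 ± 0.20, and 6 of 808 genes of similar signal (0.743%) were lower by at least as much. The genes of similar signal were not matched for the alternating A and G bases that the Ly49s5 probe holds. Klri2 and Ly49s5 ranked 102 and 103 among all decreases. The Ly49s5 probe also lists Ly49i5, whose own probe read 301 on C and 238 on RS, a log2 difference of -0.24. Another probe that lists Ly49s5, named Ly49i3, read 30.0 and 21.0.

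Probes with alternating A and G bases were lower on the RS array more often across the whole array. Of 1013 genes represented by a probe with at least 6 such bases in a row, 408 (40.3%) were lower by 2-fold or more, beside 495 of 20083 (2.46%) of the other genes. The Ly49s5 probe, with a run of 9, belongs to the former. The longest run in the Klri2 probe was 4 bases, and of the 5127 genes whose probes had a longest run of 4 bases, 2.28% were lower by 2-fold or more. The Klrb1a probe and the dimmer Klrb1c probe each had a longest run of 5 bases. Of the 1902 genes with a longest run of 5, 5.05% were lower by 2-fold or more. Ly49s7 was read by both kinds of probe, and the one with the run read 36.0 on C and 22.1 on RS, a log2 difference of -0.61, while the brighter one without a run read 222 and 168, a difference of -0.30. The part of these bases in the difference of Ly49s5 was not tested. Without Klri2 and Ly49s5 the median of the other 9 activating members was -0.30.

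The activating NKR-P1 receptors were lower. Klrb1a, which encodes the NKR-P1A receptor that marks rat NK cells, read 70.4 on the C array and 21.8 on the RS array, a log2 difference of -1.59 ± 0.25, or 3.02-fold lower. Klrb1c read 601 and 297 with its brighter probe, a difference of -0.92, and 207 and 104 with its other probe, a difference of -0.89, so that both of its probes gave nearly the same difference. A background correction that adds an offset (normexp) left Klrb1a at -0.54, within 2-fold.

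The activating Klr receptors that bind class I-like ligands were lower by less. Klrc2 read 31.8 on C and 21.8 on RS, a log2 difference of -0.45. Klrc3 read 150 and 103, a difference of -0.43, and a second Klrc3 probe, which also lists Klrc1 and Klrc2, read 104 and 89.2, a difference of -0.12. Klrk1, the NKG2D receptor, read 413 and 327, a difference of -0.24, which was within 1.96 times its spot error.

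Among the remaining stimulatory Ly49 members the directions were mixed. Ly49s6 read 279 on C and 250 on RS, a log2 difference of -0.064. Ly49s4, whose probe also lists Ly49i3, Ly49i4 and Ly49s3, read 32.9 and 34.9, a difference of 0.18. Ly49s3 read 79.4 and 90.4, a difference of 0.29. None of these 3 differences was past 1.96 times its spot error. Outside the members, a probe described as Ly49 stimulatory receptor 6 read 93.2 on C and 55.9 on RS, a difference of -0.64 ± 0.21. Another probe so described read 56.1 and 51.6, a difference of -0.023.

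The inhibitory members showed no common direction. Of the 9 above background, 5 were higher on the RS array and 4 were lower, and 0 were past 2-fold in either direction. The median log2 difference was 0.098, or -0.046 over genes above background on both arrays. Klra2, lower by more than 2-fold and given the synonym Ly49i6 by RefSeq, was placed in no class. Klrb1b, the inhibitory NKR-P1 receptor that binds a Clec2 ligand, read 10.7 on C and 16.8 on RS, a difference of 0.74 ± 0.38, which was within 1.96 times its spot error and was 0.19 with the normexp correction. Klrc1 (NKG2A), which pairs with Klrd1, read 13.3 on both arrays, a difference of 0.098. Klri1, the inhibitory counterpart of Klri2, read 206 and 168, a difference of -0.19. The Klrb1b and Klrc1 probes were close to the lowest signal counted as above background, which was 9.45 on C and 8.52 on RS.

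The inhibitory Ly49 receptors differed little as a group, with a median log2 difference of -0.00085 over 6 genes. Ly49i4, whose probe also lists Ly49s3 and Ly49s4, read 70.3 on C and 92.5 on RS, a difference of 0.49, and it was the only member past 1.96 times its spot error in the higher direction. Ly49i9 read 122 and 134, a difference of 0.24. On the lower side, Ly49i2 read 103 and 77.6, a difference of -0.31. The Ly49i3 probe, whose values are given above, had a difference of -0.42, and a second Ly49i3 probe was above background on neither array. Ly49i7 was above background on the RS array only, where it read 10.8 beside 9.52 on C. Its difference of 0.28 ± 0.44 was within its spot error.

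Set side by side, the median log2 difference was -0.43 over the 11 activating members and 0.098 over the 9 inhibitory members. The gap was -0.53, or -0.30 with the normexp correction. Over genes above background on both arrays, which leaves out Ly49i7, the inhibitory median was -0.046 and the gap -0.39. The error of the gap of -0.53, 0.147, comes from the spot errors alone and leaves out the spread between genes. That spread ran from -3.02 to 0.29 (activating) and from -0.42 to 0.74 (inhibitory). The classes overlapped. With the Klra genes in no class, the highest activating value was 0.29 (Ly49s3) and the lowest inhibitory value was -0.42 (Ly49i3). Of the activating members, 6 lay below every inhibitory member, of which Klrc2 and Klrc3 did so by less than their spot errors. Within subfamilies the activating members were lower than their inhibitory counterparts in Klrb1 (median -1.26 against 0.74), in Klrc (-0.44 against 0.098) and in Klri (-3.02 against -0.19), each with 1 inhibitory gene. Those of Klrb1 and Klrc, Klrb1b and Klrc1, were read close to the lowest signal counted as above background. With the normexp correction Klrb1b was at 0.19 and Klrb1a at -0.54. The medians of the stimulatory and the inhibitory Ly49 members, -0.064 and -0.00085, differed by less than a spot error. Ly49 probes of both classes list members of the other class. The Ly49s4 probe lists Ly49i3 and Ly49i4, and the Ly49i4 probe lists Ly49s3 and Ly49s4. The Ly49 medians were therefore not read from separate targets. The contrast also depended on names and probes. RefSeq gives the accession of the Klra2 probe the synonym Ly49i6, that of a Klra1 probe the synonym Ly49i8 and that of Klra22 the synonym Ly49s2. With these genes placed in the classes their synonyms name, the inhibitory median became -0.19 and the difference between classes -0.18, with Klra1 represented by its brightest probe, which lies on chromosome 16 and whose accession matched no synonym. With the brighter of the Klra1 probes that carry the synonym in its place, the inhibitory median was 0.098 and the difference between classes -0.47. Under the synonyms Klra2, at -1.25 and past 2-fold, was the lowest inhibitory value. Only Klri2, Ly49s5 and Klrb1a then lay below every inhibitory member.

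**Figure D3:**
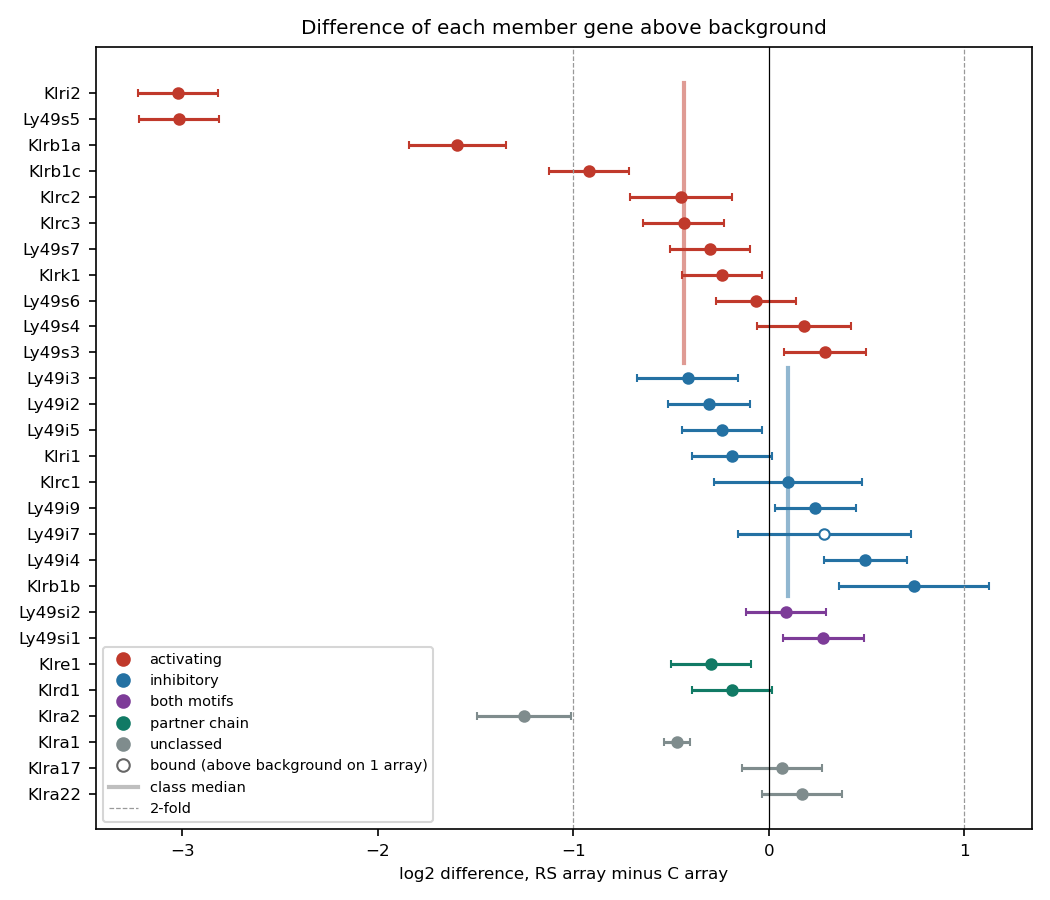
Log2 difference, RS minus C, of each of the 28 member genes above background on at least 1 array, sorted within class; bars are the spot error and thick vertical lines the medians of the activating and inhibitory classes. The 4 genes left of the dashed line at -1 are Klri2, Ly49s5, Klrb1a and Klra2. The open symbol of Ly49i7 marks a gene above background on the RS array only, with a difference within its spot error.

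**Figure D4:**
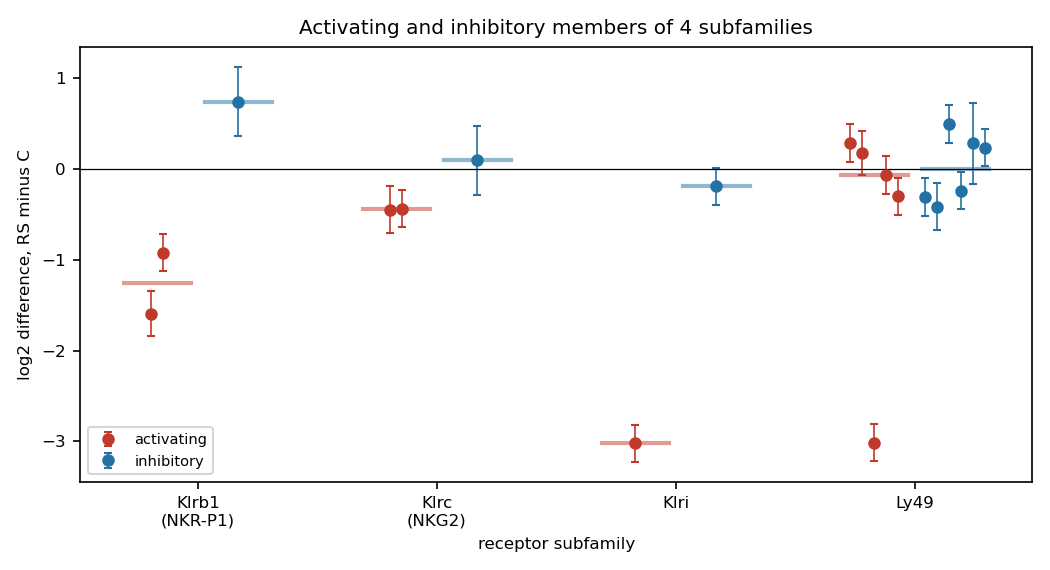
Log2 difference, RS minus C, of activating (red) and inhibitory (blue) members above background in the Klrb1, Klrc, Klri and Ly49 subfamilies; points are genes, bars the spot error and horizontal lines the medians. Red points lie below blue ones in Klrb1, Klrc and Klri, and the Ly49 points overlap apart from Ly49s5. The blue points of Klrb1 and Klrc were read close to the lowest signal counted as above background.

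The members that carry both kinds of motif, and the partner chains, differed by little. Ly49si1 read 182 on C and 207 on RS, a log2 difference of 0.28. Ly49si2 read 320 and 317 with its brighter probe, a difference of 0.086, and a dimmer probe gave -0.099, so that its direction changed with the probe. Klrd1, the CD94 chain of the NKG2 receptors, read 482 and 395, a difference of -0.19. Klre1, which pairs with Klri1 and Klri2, read 283 and 216, a difference of -0.29.

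The Klra genes, whose names give no receptor type, were placed in no class. Klra2 read 64.0 on the C array and 25.1 on the RS array, a log2 difference of -1.25 ± 0.24, or 2.38-fold lower, and -0.44 with the normexp correction. Klra1 was the only member printed as 10 spots on each array, and its spots ranged from 1654 to 1878 on C and from 1116 to 1331 on RS without overlap, with a log2 difference of -0.47 ± 0.065. That probe, made to a cDNA clone, lies on chromosome 16 by the files, away from the receptor cluster. The other Klra1 probes disagreed, with 32.1 and 40.1 (a difference of 0.42) and with 14.8 and 10.4 (-0.41), so that Klra1 had no single direction. Klra17 read 217 and 212, a difference of 0.066, and Klra22 read 252 and 265, a difference of 0.17.

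Genes that work with these receptors were described by lists. The 17 genes of the signaling chains were all above background, with 8 higher and 9 lower, 0 past 2-fold and a median log2 difference of -0.051. Among them, the adaptors of the activating receptors read 7416 on C and 7074 on RS for Tyrobp (0.030) and 3933 and 3361 for Hcst (-0.13), and the phosphatase Ptpn6 of the inhibitory receptors gave -0.17. Of 12 ligand genes, 9 were above background, 7 of them higher and 2 lower, 0 past 2-fold, with a median of 0.23. Beside both lists, 47.9% of all genes above background were lower, and the median of all genes was 0.016. By 2-fold or more, 4.28% of all genes were lower and 3.46% were higher. Clec2d, a Clec2 family ligand, read 140 and 179, a difference of 0.45.

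NK cell markers outside the receptor families were mostly lower on the RS array. Of 18 genes, 16 were above background, and 13 were lower and 3 higher, with a median log2 difference of -0.44 and 3 lower by 2-fold or more. Of all genes above background, 47.9% were lower, 4.28% were lower by 2-fold or more and 3.46% were higher by as much. Eomes, a transcription factor of NK and memory T cells, read 344 on C and 96.6 on RS (-1.73), and the chemokine gene Xcl1 read 233 and 95.9 (-1.18). Cd226, an activating receptor, read 6323 and 816 (-2.85) with a probe that holds alternating A and G bases. Prf1, which encodes perforin, gave -0.27, and Tbx21, which encodes T-bet, gave 0.0038. The defining NK marker Ncr1 (NKp46) was above background on neither array. The 11 T cell markers were all above background, with 8 lower and 3 higher, 0 past 2-fold, differences from -0.97 to 0.57 and a median of -0.16. Among them, Cd6 (-0.76) was also read by a probe that holds alternating A and G bases. Of the B cell markers, 6 were above background with 4 lower and 2 higher (median -0.051), and of 6 macrophage markers 3 were lower and 3 higher (median -0.10). The arrays also differed in markers of other tissue, since 6 of 6 erythrocyte markers and 5 of 6 fat markers were higher on the RS array by 2-fold or more. The log2 differences of the erythrocyte markers (Ahsp, Alas2, Hba1, Hba2, Hbb and Hbb-b1) ran from 1.42 to 2.88 with a median of 2.61, and those of the fat markers above background (Adipoq, Cfd, Cidec, Fabp4 and Lep) from 1.08 to 3.24 with a median of 2.74. The part of cell or tissue content in the differences of the receptors was not tested.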

How the data were processed

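Total RNA was labeled with Cy3, hybridized to Agilent SurePrint G3 Rat arrays and extracted by the authors with Feature Extraction 11.5.1.1 (named in the submitters' processing notes), which gave the deposited spot intensity values after background subtraction within each array. The deposited log2 table matched the values computed here within 0.1 for 100% of 45598 probes, and was used as an alternative. Its column medians were -3.523 (C) and -3.551 (RS). From the intensities, outlier spots were left out, spots of a probe were averaged on the log2 scale, and the 75th percentile of the array was subtracted. A probe was above background where over 50% of its spots were marked so. For a probe above background on 1 array, the difference was taken against the higher of its own signal and the lowest signal above background on the other array, and is a lower bound. Every member gene above background on at least 1 array is named with its values, and other genes where they pass 2-fold or define a list. Genes of similar signal were those within 0.5 log2 units. The members and the lists were chosen with earlier results of these data known. RefSeq (GRCr8) accessions matched 33 of the 44 probes, with another symbol for 4. The number of arrays limits the precision. ITIM motifs were not analysed here. Python 3.11.15, numpy 2.4.6, pandas 2.3.3, R 4.3.3 and limma 3.58.1 were used, with steps tested on simulated data.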

Additional observations from a re-analysis of the deposited data

How the results depend on the processing

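With 1 array in each group no replicate could be left out, and the depth of the measurement is limited by the spot error and the signal over background. No paired analysis was possible because only 1 array represents a group. Of 104 counts and medians under alternatives, 92 stayed close to the values given, 8 moved and 4 changed sign, all 4 in the inhibitory median, which lay near 0. Without normalization the medians were -0.31 for the members, -0.53 for the activating and -0.00049 for the inhibitory members. With normexp, 2 members were lower by 2-fold or more (1.8% of all genes), and the medians were -0.13 for the members, -0.25 for the activating members and -0.30 for the activating minus the inhibitory median. The inhibitory median was -0.046 both when genes had to be above background on both arrays and with no filter, and without a filter 1 member was higher by 2-fold or more (5.61% of all genes). Chosen after seeing the data were the removal of probes in which A and G alternate, of the Klra1 probe on chromosome 16, and the use of classes by RefSeq synonym, which gave -0.19 for the inhibitory median and -0.18 for the difference between classes where the chromosome 16 probe stood for Klra1, and 0.098 and -0.47 where a probe that carries the synonym did. Without the A and G probes 3 members were lower by 2-fold or more (2.67% of all genes) and the difference between classes was -0.47. Of 418 values of named members, 408 stayed within the spot error and 10 moved. The sign changed under some alternative for Klra1, Klra17, Klrc1 and Ly49si2.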

Other observations

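The array holds 22 further probes whose description names a killer cell lectin-like or Ly49 receptor under another gene name, and 13 of them were above background on at least 1 array. Of these 13, 7 were lower on the RS array and 6 higher, with a median log2 difference of -0.023. The 1 probe past 2-fold was RGD2301395, described as similar to Klrb1a, with intensities of 41.4 on C and 15.2 on RS, a log2 difference of -1.35 ± 0.29 (spot error). Nkr-p1c read 50.8 and 66.7, a difference of 0.49. RefSeq gives Klrb1c the synonym NKR-P1F, so that Nkr-p1c was not read as the same gene as Klrb1c. The further probes were set beside the members after their values were seen.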
